A study of Homo sapiens with 16 samples.

Results

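Mitotic cell cycle genes encode the cyclins, kinases, checkpoint proteins, motors and structural proteins that take a cell from the G1 decision to division. A list of 51 such genes was followed here through 16 RNA-seq libraries of human T-cell leukemia lines in which USP7, a deubiquitylating enzyme, was depleted. The members were the rows of the deposited count table that carry the Ensembl identifiers of the listed symbols; the rule itself used no measured value, but the list was drawn up with earlier results of these data known. All 51 were found among the 57820 genes of the table, and all 51 passed the filter on low counts in every fit. The lowest count of any member in any library was 9, for CCND2 in HSB-2.

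Jurkat and HSB-2 are established cell lines from T-lineage acute lymphoblastic leukemia (T-ALL), and both carry the genotype TAL1+, which marks aberrant activity of the transcription factor TAL1. Each line gave 4 groups of 2 libraries, namely wild-type cells (WT), cells given a scrambled control, and cells given USP7 shRNA-4057 or USP7 shRNA-4058, hairpins against different exons of USP7. Per the study's methods the hairpins were delivered by lentivirus and the cells were then sorted for GFP or selected with puromycin. The sample labels call the control a scrambled siRNA and the design text an shRNA scramble. No source used here says whether the WT cells went through transduction or selection. No source used here says whether the replicates were separate transductions or cultures, so p-values measure the spread between these libraries, which may be technical.

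USP7 itself checked the labels. The USP7 level, in CPM (counts scaled with TMM factors to the same library total), was in Jurkat 396 and 386 in WT, 384 and 387 in scrambled, 140.0 and 145 with shRNA-4057, and 244 and 242 with shRNA-4058. In HSB-2, USP7 was 237 and 243 in WT, 227 and 220.1 in scrambled, 144 and 149 with shRNA-4057, and 162 and 156 with shRNA-4058. Every hairpin library lay below every control library of its line. Total counts per library were 86892818 to 110265819 in Jurkat and 76602847 to 235467749 in HSB-2, and the 10 most abundant genes took 14.94 and 17.04% of the counts in the Jurkat scrambled libraries against 8.16 to 12.1% in the other 14. The T-lineage markers fixed for this check all averaged 1 CPM or above over the controls and over the hairpin libraries of each line (10 of 10). Their summed level was 3053 to 3263 CPM in Jurkat controls, 2621 to 2938 CPM in Jurkat with a hairpin, 2935 to 3403 CPM in HSB-2 controls and 3661 to 4117 CPM in HSB-2 with a hairpin. In HSB-2 scrambled, CD2 was below 1 CPM, at 0.819 and 0.786. It was 3.87 and 3.04 in HSB-2 WT, 4.91 and 4.96 with shRNA-4057, and 3.51 and 3.29 with shRNA-4058. Of 14 markers of B, myeloid, erythroid and epithelial cells, only CD79A reached 1 CPM in Jurkat, and only PAX5 and CD79A did so in HSB-2. The sum over those markers was 35.8 to 65.0 CPM in Jurkat controls and 22.2 to 23.4 CPM with a hairpin, and at most 5.27 CPM in any HSB-2 library. Among the markers at 0 counts in both lines were HBB and KRT19. The part of these shifts in the results below was not tested.

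The cell cycle engine works by waves of transcription and destruction. D and E cyclins and E2F factors open the cycle, and later the B-MYB and FOXM1 factors switch on a late wave that includes cyclin B, CDK1, Polo and Aurora kinases, kinetochore proteins and spindle motors. The spindle checkpoint then restrains the anaphase-promoting complex (APC/C), an ubiquitin ligase, until each chromosome is attached. In T-ALL the cyclins CCND2 and CCND3 are the usual D-type cyclins. In bulk RNA a change in the share of cells that are in a given phase and a change in RNA per cell cannot be told apart.

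Many promoters of the late wave hold a cell cycle homology region (CHR), bound by the DREAM and B-MYB complexes, beside CCAAT boxes bound by NF-Y, while promoters of the G1/S wave hold E2F sites. Sequences of 150 bases before the transcription start were taken from RefSeq (GRCh38.p14; a different build from that of the counts) for 6 members, shown because they hold these elements in different arrangements and because their transcripts moved in different ways. Against scrambled, PLK1, CENPA and CDC20 rose in HSB-2 and CKS1B and CKS2 fell in Jurkat, and E2F1 stands for the E2F type. Against WT the pooled HSB-2 values were 0.028 (adjusted p = 0.79) for PLK1, 0.071 (adjusted p = 0.52) for CENPA and -0.12 (adjusted p = 0.11) for CDC20. The windows are PLK1 on chr16:23678739-23678888 (+), CENPA on chr2:26785906-26786055 (+), CDC20 on chr1:43358831-43358980 (+), CKS1B on chr1:154974531-154974680 (+), CKS2 on chr9:89311045-89311194 (+) and E2F1 on chr20:33686386-33686535 (-). Letters are 5′ to 3′ on the strand of the gene, and capitals mark TTTGAA (the CHR core), CCAAT, and the E2F forms TTTCCCGC, TTTGGCGC, TTTCGCGC and TTTGCCGC, each on either strand, with no overlaps among them in these windows.
PLK1: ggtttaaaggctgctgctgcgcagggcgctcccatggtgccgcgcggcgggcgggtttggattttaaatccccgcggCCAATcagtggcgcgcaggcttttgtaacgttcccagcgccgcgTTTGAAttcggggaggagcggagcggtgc
CENPA: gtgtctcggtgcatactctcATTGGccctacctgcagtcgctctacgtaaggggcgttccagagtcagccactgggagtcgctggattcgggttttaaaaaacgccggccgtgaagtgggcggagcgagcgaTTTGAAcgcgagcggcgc
CDC20: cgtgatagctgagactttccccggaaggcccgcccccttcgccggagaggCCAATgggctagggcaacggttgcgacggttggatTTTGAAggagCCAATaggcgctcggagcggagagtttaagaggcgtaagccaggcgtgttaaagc
CKS1B: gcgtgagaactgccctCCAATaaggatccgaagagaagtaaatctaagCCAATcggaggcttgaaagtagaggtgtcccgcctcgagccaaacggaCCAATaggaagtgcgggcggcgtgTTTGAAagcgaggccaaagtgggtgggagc
CKS2: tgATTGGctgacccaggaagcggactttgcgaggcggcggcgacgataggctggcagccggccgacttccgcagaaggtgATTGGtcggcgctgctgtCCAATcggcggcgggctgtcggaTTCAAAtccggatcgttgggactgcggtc
E2F1: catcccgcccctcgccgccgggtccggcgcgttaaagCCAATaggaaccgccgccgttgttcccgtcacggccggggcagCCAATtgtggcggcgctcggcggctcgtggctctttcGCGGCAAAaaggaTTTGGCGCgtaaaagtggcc

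The promoter table covered 42 of the 51 members with windows from 250 bases before to 50 after the start. TTTGAA was found in 28 of the 42 (66.7%), against 18.2% of all 27305 genes with a window. CCAAT was found in 33 (78.6%, against 39.7%) and an E2F form in 6 (14.3%, against 3.99%), namely CDC25A, CDK1, CENPA, E2F1, E2F2 and NUSAP1. In PLK1 the CHR core started 29 bases before the transcription start, in CKS1B 30 bases and in CKS2, on the opposite strand, 29 bases before it. Of the 28 members with TTTGAA, 15 were higher and 1 lower in HSB-2 with a USP7 hairpin than with the scrambled control, and of the 14 without it 9 were higher and 1 lower. In Jurkat the corresponding counts were 4 higher and 6 lower of 28, and 4 higher and 3 lower of 14. Of all genes tested, 20.3% were called higher and 17.8% lower in HSB-2, and 12.4% higher and 15.7% lower in Jurkat. Calls in either line fell on promoters with and without the motif, and a difference between these was not tested. A match describes letters and says nothing of binding. AURKA, FOXM1, CCND2, BIRC5, TPX2, TTK, BUB3, UBE2C and CCNE2 had no window in the table.

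Divided by exon length, the WT levels of the members in Jurkat ran from 2.13 CPM per kb for CCND2 to 122 for CKS2. In HSB-2 WT the lowest was again CCND2, at 0.0389 CPM per kb, and the highest TOP2A, at 118. Apart from CCND2, all members lay between 3.92 and 122 CPM per kb in Jurkat WT and between 4.23 and 118 in HSB-2 WT. CCNE1, CCNE2 and CDC25C came next above CCND2 in Jurkat, and TPX2, TOP2A and CKS2 stood at the top. CCND2 was the member that separated the lines, with a WT level in HSB-2 far under its Jurkat level, whereas the related cyclin CCND3 was at 52.1 CPM per kb in Jurkat WT and 62.0 in HSB-2 WT.

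The question of the main comparison was how USP7 depletion altered these genes relative to the scrambled control. In HSB-2, with both hairpins pooled (4 libraries against 2), 31 of the 51 members were higher and 2 lower at an adjusted p under 0.05, where 20.3% of all 21113 genes tested were called higher and 17.8% lower. The median log2 fold change of the members was 0.32, against -0.018 over all genes. In Jurkat 9 members were higher and 12 lower, where 12.4% of 21288 genes were called higher and 15.7% lower, and the median was -0.079 against 0.020. The list therefore moved to one side in HSB-2 and to both sides in Jurkat. Set against WT cells in place of scrambled, the pooled hairpins gave 11 members higher and 4 lower in HSB-2 (13.3 and 11.8% of all genes) and 2 higher and 3 lower in Jurkat (3.1 and 5.31% of all genes). Leaving out 1 scrambled library took away calls and turned no sign of a called member. The share of all genes called was not worked out for these fits, so their counts have no background. Without Jurkat scrambled replicate 1 the Jurkat count was 7 members (5 higher, 2 lower) and without replicate 2 it was 6 (4 higher, 2 lower), and CCND2, CENPE, ASPM, CENPF, CKS1B and CKS2 were called both times. The 14 members that lost their call both times in Jurkat had values of -0.41 to 0.37. Without either HSB-2 scrambled library the HSB-2 count was 24, and without replicate 1 neither lower call was left, with BUB1 at -0.35 and NUF2 at -0.24.

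**Figure D1:**
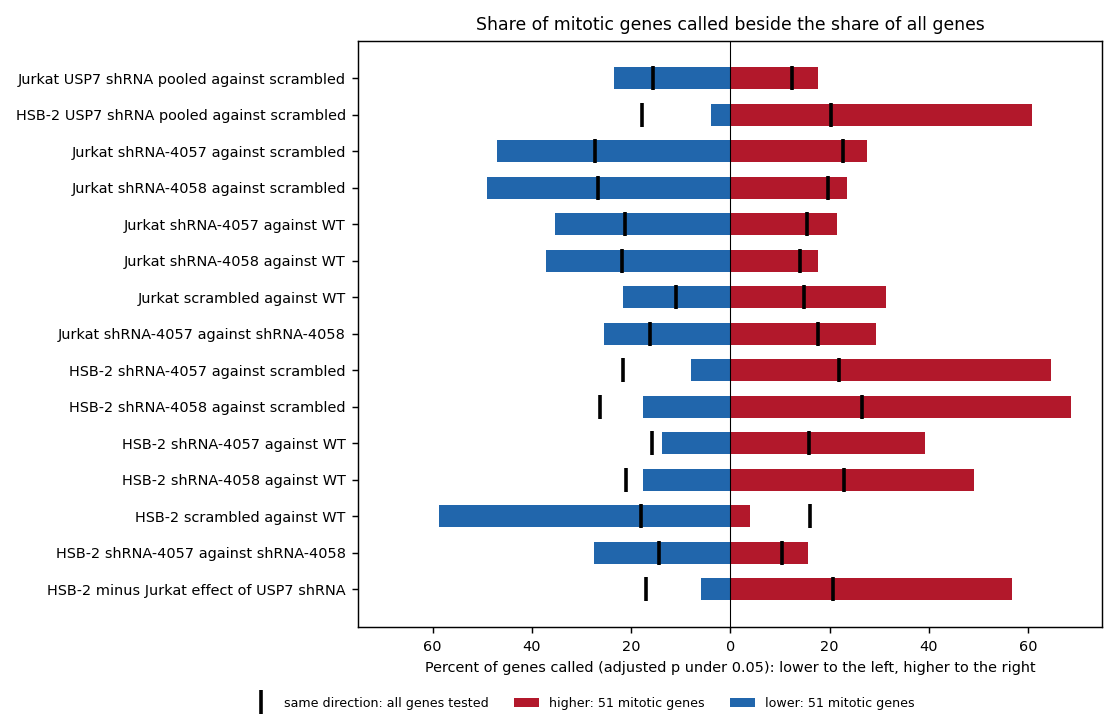
Percent of the 51 mitotic genes called higher (right) and lower (left) in each comparison, as bars, with the percent of all genes tested called in the same direction as black ticks (adjusted p under 0.05). The bars pass the ticks most clearly on the higher side in HSB-2 against scrambled, with 31, 33 and 35 of 51 members, and on the lower side in HSB-2 scrambled against WT, with 30 of 51.

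The list was next divided by role, beginning with CDK1, its cyclins and their regulators. The counts by role stand beside the same background, 12.4% of all genes higher and 15.7% lower in Jurkat and 20.3% higher and 17.8% lower in HSB-2. Of these 10 members, 2 rose and 4 fell in Jurkat and 6 rose and none fell in HSB-2. CDK1, the kinase that drives entry into mitosis, stood in Jurkat at 123 and 111 in WT, 143 and 125 in scrambled, 104 and 107 with shRNA-4057, and 127 and 118 with shRNA-4058. In HSB-2 it stood at 94.3 and 104 in WT, 103 and 94.3 in scrambled, 98.3 and 107 with shRNA-4057, and 111 and 108 with shRNA-4058. The groups overlapped in both lines, and the pooled log2 fold change was -0.21 ± 0.099 (adjusted p = 0.15) in Jurkat and 0.11 ± 0.063 (adjusted p = 0.2) in HSB-2.

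CCNA2, the S and G2 cyclin, was in Jurkat at 119 and 111 in WT, 139 and 124 in scrambled, 116 and 119.7 with shRNA-4057, and 125 and 119 with shRNA-4058. Its HSB-2 levels were 105 and 114 in WT, 107 and 101 in scrambled, 119 and 120.1 with shRNA-4057, and 131 and 131 with shRNA-4058. All 4 HSB-2 hairpin libraries were above all 4 controls, and the rise was 0.27 ± 0.06 (adjusted p = 0.0075), whereas Jurkat gave -0.11 ± 0.067 (adjusted p = 0.25). The mitotic cyclin CCNB1 was in Jurkat at 136 and 131 in WT, 117 and 113 in scrambled, 134 and 139.9 with shRNA-4057, and 131 and 131 with shRNA-4058, so that the scrambled pair was the lowest. Its HSB-2 levels were 135 and 137 in WT, 111 and 107 in scrambled, 119 and 121 with shRNA-4057, and 129 and 119 with shRNA-4058. CCNB1 rose over scrambled in Jurkat by 0.24 ± 0.059 (adjusted p = 0.02) and in HSB-2 by 0.18 ± 0.054 (adjusted p = 0.032), but in HSB-2 the hairpin libraries stayed below WT, at -0.16 ± 0.05 (adjusted p = 0.048). CCNB2, the other B cyclin, fell in Jurkat by 0.27 ± 0.055 (adjusted p = 0.01) and rose in HSB-2 by 0.34 ± 0.057 (adjusted p = 0.0018) against scrambled. Against WT, CCNB2 gave -0.25 (adjusted p = 0.036) in Jurkat and 0.048 (adjusted p = 0.56) in HSB-2.

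CKS1B and CKS2 encode the small subunits that bind cyclin-dependent kinases, and they gave the largest falls in Jurkat. CKS2 (chr9:91926110-91931618, GRCh37) was in Jurkat at 72.9 and 77.2 in WT, 109 and 113 in scrambled, 59.9 and 59.5 with shRNA-4057, and 64.6 and 62.3 with shRNA-4058. CKS1B (chr1:154947129-154951727, GRCh37) was at 59.4 and 56.0 in WT, 83.6 and 83.5 in scrambled, 47.5 and 46.3 with shRNA-4057, and 51.7 and 52.1 with shRNA-4058. For both genes the scrambled libraries were the highest, WT came between and the hairpin libraries were the lowest, without overlap. CKS2 fell by 0.83 ± 0.063 (adjusted p = 0.00026) and CKS1B by 0.73 ± 0.072 (adjusted p = 0.00062) relative to scrambled. Relative to WT, CKS2 gave -0.33 (adjusted p = 9.2e-06) with shRNA-4057 and -0.24 (adjusted p = 0.00035) with shRNA-4058, and CKS1B gave -0.30 (adjusted p = 2.4e-05) and -0.15 (adjusted p = 0.014). The scrambled libraries themselves exceeded WT by 0.57 (adjusted p = 5.4e-09) for CKS2 and 0.53 (adjusted p = 1.1e-08) for CKS1B.

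In HSB-2 the same pair did not fall. CKS2 was there at 64.7 and 58.7 in WT, 59.9 and 59.3 in scrambled, 59.3 and 60.6 with shRNA-4057, and 64.7 and 70.0 with shRNA-4058, and CKS1B at 68.2 and 73.7 in WT, 71.7 and 69.1 in scrambled, 75.4 and 74.0 with shRNA-4057, and 84.8 and 92.0 with shRNA-4058. The pooled values were 0.099 ± 0.072 (adjusted p = 0.31) for CKS2 and 0.22 ± 0.088 (adjusted p = 0.081) for CKS1B, and only shRNA-4058 raised CKS1B in the fit of single hairpins, by 0.33 (adjusted p = 2.5e-06) against 0.085 (adjusted p = 0.15) with shRNA-4057.

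The CDC25 phosphatases, which remove the inhibitory phosphates from cyclin-dependent kinases, divided. CDC25A was in Jurkat at 95.3 and 95.7 in WT, 104 and 106 in scrambled, 86.5 and 85.7 with shRNA-4057, and 112 and 111 with shRNA-4058, lower with shRNA-4057 and not with shRNA-4058, so that the hairpins themselves differed by -0.37 (adjusted p = 3.4e-08). In HSB-2, CDC25A was at 72.1 and 71.6 in WT, 73.0 and 74.4 in scrambled, 68.0 and 66.6 with shRNA-4057, and 59.5 and 57.0 with shRNA-4058, and every hairpin library was below every control. Its pooled log2 fold change there was -0.23 ± 0.08 (adjusted p = 0.051). CDC25B rose over scrambled in both lines, by 0.52 ± 0.08 (adjusted p = 0.0035) in Jurkat and 0.62 ± 0.091 (adjusted p = 0.00082) in HSB-2, with all hairpin libraries above all controls in each. Its pooled values against WT were not called, at 0.19 (adjusted p = 0.18) in Jurkat and 0.21 (adjusted p = 0.12) in HSB-2. CDC25C was in Jurkat at 25.4 and 25.6 in WT, 26.8 and 25.3 in scrambled, 20.5 and 19.7 with shRNA-4057, and 19.5 and 19.6 with shRNA-4058, all hairpin libraries being lowest, and in HSB-2 at 20.5 and 19.96 in WT, 18.0 and 18.3 in scrambled, 22.0 and 22.7 with shRNA-4057, and 24.7 and 23.3 with shRNA-4058, all hairpin libraries being highest. Against scrambled it fell in Jurkat by 0.37 ± 0.069 (adjusted p = 0.0073) and rose in HSB-2 by 0.36 ± 0.068 (adjusted p = 0.0032). Against WT it gave -0.34 (adjusted p = 0.026) in Jurkat and 0.19 (adjusted p = 0.062) in HSB-2. CDKN3, a phosphatase of cyclin-dependent kinases, gave -0.12 (adjusted p = 0.22) in Jurkat and rose in HSB-2 by 0.30 (adjusted p = 0.0045). CDC25C shares exon sequence with the antisense gene FAM53C and CCNA2 with EXOSC9, and the strand setting of the counts is not given, so these values are uncertain.

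Among the G1 cyclins and E2F factors, 1 of 6 rose and 2 fell in Jurkat, and 3 rose and none fell in HSB-2. CCND2 (chr12:4378937-4414519, GRCh37), a D-type cyclin that starts the cycle with CDK4 or CDK6, showed the largest log2 fold change of the list against scrambled in both lines. Its Jurkat levels were 17.7 and 16.3 in WT, 8.44 and 8.59 in scrambled, 25.4 and 23.8 with shRNA-4057, and 32.7 and 32.2 with shRNA-4058. Its HSB-2 levels were 0.180 and 0.442 in WT, 0.0963 and 0.0683 in scrambled, 0.175 and 0.212 with shRNA-4057, and 0.274 and 0.133 with shRNA-4058. In Jurkat all hairpin libraries were above all controls, and the scrambled pair was the lowest, whereas in HSB-2 the hairpin libraries lay above scrambled and within the range of WT or below it. CCND2 rose by 1.77 ± 0.16 (adjusted p = 0.00046) over scrambled in Jurkat and by 1.31 ± 0.44 (adjusted p = 0.041) in HSB-2. The scrambled control differed from WT by -1.0 (adjusted p = 1.3e-07) in Jurkat and -1.65 (adjusted p = 0.0013) in HSB-2 on the log2 scale. Against WT the Jurkat rise was 0.53 (adjusted p = 0.00014) with shRNA-4057 and 0.93 (adjusted p = 5.6e-08) with shRNA-4058, and the HSB-2 values were -0.42 (adjusted p = 0.45) and -0.13 (adjusted p = 0.77), so the HSB-2 rise rests on the scrambled control and on low counts. It lost its call without scrambled replicate 1 (1.56) or 2 (1.09), shRNA-4057 replicate 2 (1.31) or shRNA-4058 replicate 1 (1.09). CCND2 shares exons with CCND2-AS1 and other annotated transcripts.

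CCND3, the abundant D-type cyclin, moved in opposite directions. It was in Jurkat at 292 and 309 in WT, 399.8 and 397 in scrambled, 321 and 311 with shRNA-4057, and 335 and 353 with shRNA-4058. In HSB-2, CCND3 was at 349 and 365 in WT, 306 and 314 in scrambled, 453 and 431 with shRNA-4057, and 474 and 508 with shRNA-4058. The HSB-2 hairpin libraries were all above the controls, with 0.60 ± 0.068 (adjusted p = 0.0002) against scrambled and 0.38 ± 0.066 (adjusted p = 0.0047) against WT. In Jurkat CCND3 fell relative to scrambled, by 0.25 ± 0.064 (adjusted p = 0.025), but the scrambled pair exceeded WT by 0.41 (adjusted p = 4.1e-08), and the pooled hairpins set against WT gave 0.16 ± 0.067 (adjusted p = 0.17), in the other direction.

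The E cyclins, partners of CDK2 at the start of S phase, were not called in either pooled comparison. CCNE1 was in Jurkat at 9.53 and 9.77 in WT, 10.2 and 11.4 in scrambled, 10.3 and 10.7 with shRNA-4057, and 11.8 and 12.8 with shRNA-4058, and in HSB-2 at 10.7 and 11.9 in WT, 11.5 and 11.1 in scrambled, 11.3 and 10.2 with shRNA-4057, and 12.6 and 11.9 with shRNA-4058. CCNE2 was in Jurkat at 24.6 and 21.9 in WT, 35.1 and 31.4 in scrambled, 29.6 and 31.1 with shRNA-4057, and 27.7 and 26.5 with shRNA-4058, and in HSB-2 at 18.4 and 18.8 in WT, 22.4 and 20.7 in scrambled, 26.5 and 26.0 with shRNA-4057, and 15.4 and 16.3 with shRNA-4058. The CCNE2 values of the HSB-2 hairpins lay on either side of both controls, and shRNA-4057 exceeded shRNA-4058 by 0.74 (adjusted p = 1.9e-08), the widest gap between the hairpins of any member in that line. CCNE2 lies antisense to exons of INTS8, with which its reads could be mixed.

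E2F1, an activator of S-phase genes, was in Jurkat at 78.4 and 80.8 in WT, 99.9 and 100.4 in scrambled, 74.0 and 70.9 with shRNA-4057, and 78.4 and 81.1 with shRNA-4058, and in HSB-2 at 84.4 and 86.5 in WT, 77.1 and 82.5 in scrambled, 82.5 and 81.3 with shRNA-4057, and 74.6 and 78.7 with shRNA-4058. It fell in Jurkat by 0.37 ± 0.071 (adjusted p = 0.0084) from a scrambled level above WT, at 0.33 (adjusted p = 2.8e-06), and gave -0.0055 ± 0.063 (adjusted p = 0.95) in HSB-2. The related factor E2F2 was in Jurkat at 122 and 128 in WT, 141 and 149 in scrambled, 157 and 155 with shRNA-4057, and 159 and 165 with shRNA-4058, with the 4 hairpin libraries highest. In HSB-2, E2F2 was at 133 and 132 in WT, 109 and 112 in scrambled, 155 and 149 with shRNA-4057, and 129 and 134 with shRNA-4058. Its log2 fold change against scrambled was 0.15 ± 0.059 (adjusted p = 0.092) in Jurkat and 0.36 ± 0.082 (adjusted p = 0.0075) in HSB-2. Against WT it was 0.38 ± 0.059 (adjusted p = 0.013) in Jurkat and 0.097 (adjusted p = 0.42) in HSB-2.

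FOXM1 and MYBL2, the transcription factors of the late wave, both rose over scrambled in HSB-2. FOXM1 was there at 199.7 and 190.4 in WT, 147 and 154 in scrambled, 225 and 219 with shRNA-4057, and 202 and 215 with shRNA-4058. MYBL2, the gene of B-MYB, was at 299 and 295 in WT, 242 and 259.5 in scrambled, 333 and 319.7 with shRNA-4057, and 315 and 331 with shRNA-4058. Scrambled was the lowest group for each, and the hairpin libraries did not overlap with any control. The rise over scrambled was 0.52 ± 0.061 (adjusted p = 0.00021) for FOXM1 and 0.38 ± 0.055 (adjusted p = 0.0008) for MYBL2. The pooled values against WT were not called, at 0.14 (adjusted p = 0.12) for FOXM1 and 0.12 (adjusted p = 0.088) for MYBL2. In Jurkat FOXM1 was at 184 and 192 in WT, 188 and 202 in scrambled, 192 and 181 with shRNA-4057, and 165 and 178 with shRNA-4058, and MYBL2 at 267 and 277 in WT, 332 and 352 in scrambled, 259.7 and 240.1 with shRNA-4057, and 300.4 and 329 with shRNA-4058. Neither was called there, with -0.099 ± 0.071 (adjusted p = 0.33) and -0.25 ± 0.12 (adjusted p = 0.15), and the hairpins differed for MYBL2 by -0.33 (adjusted p = 4.0e-06). FOXM1 has exons opposite ITFG2.

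**Figure D2:**
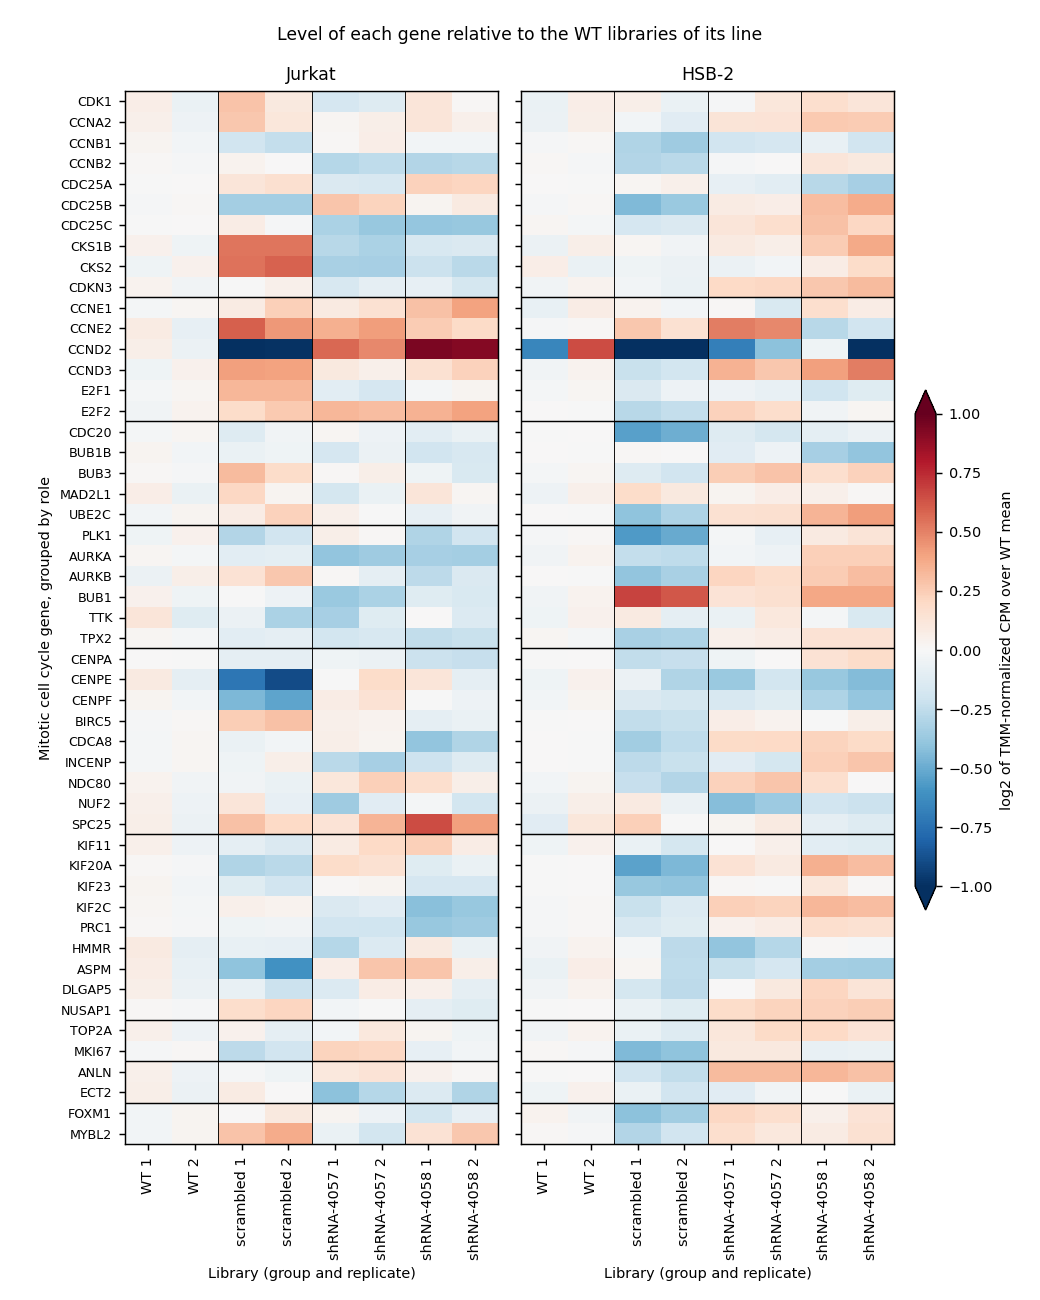
Level of each of the 51 genes in each library of Jurkat (left) and HSB-2 (right), as log2 of TMM-normalized CPM over the mean of the log2 WT levels of the line, with genes grouped by role (black lines) and colors cut at 1 log2 unit on either side. The HSB-2 scrambled columns are blue for most genes and deepest red for BUB1, and the Jurkat scrambled columns mix red (CKS1B, CKS2, CCNE2) and blue (CCND2, CENPE, CENPF, ASPM).

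The mitotic kinases and TPX2 formed the next group. Of 6 members, none rose and 2 fell in Jurkat, and 4 rose and 1 fell in HSB-2. PLK1, the Polo kinase of mitotic entry and spindle assembly, was in Jurkat at 119 and 127 in WT, 100.3 and 108 in scrambled, 128 and 124 with shRNA-4057, and 100.1 and 108 with shRNA-4058. In HSB-2, PLK1 was at 115 and 117 in WT, 78.2 and 81.6 in scrambled, 114 and 109 with shRNA-4057, and 123 and 126 with shRNA-4058, with scrambled lowest and the other 3 groups close to each other. PLK1 rose over scrambled in HSB-2 by 0.57 ± 0.069 (adjusted p = 0.00028), but the hairpins gave -0.05 (adjusted p = 0.46) and 0.11 (adjusted p = 0.052) against WT. In Jurkat the pooled value was 0.17 ± 0.11 (adjusted p = 0.27), and the hairpins differed from each other by 0.28 (adjusted p = 2.7e-05). PLK1 lies antisense to exons of ERN2.

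AURKA, the centrosomal Aurora kinase, was in Jurkat at 76.4 and 74.6 in WT, 70.2 and 70.4 in scrambled, 57.3 and 58.9 with shRNA-4057, and 59.9 and 59.7 with shRNA-4058, with all hairpin libraries lowest. In HSB-2, AURKA was at 59.96 and 63.0 in WT, 52.1 and 51.5 in scrambled, 60.3 and 59.4 with shRNA-4057, and 72.3 and 72.5 with shRNA-4058. AURKA fell in Jurkat by 0.23 ± 0.059 (adjusted p = 0.025) against scrambled and gave -0.33 ± 0.059 (adjusted p = 0.019) against WT. In HSB-2 it rose over scrambled by 0.36 ± 0.093 (adjusted p = 0.015) but gave 0.10 (adjusted p = 0.47) against WT. AURKB, the Aurora kinase of the chromosomal passenger complex, was in Jurkat at 83.9 and 91.1 in WT, 96.9 and 105 in scrambled, 87.9 and 82.2 with shRNA-4057, and 72.9 and 79.2 with shRNA-4058. Its HSB-2 levels were 88.2 and 87.5 in WT, 66.9 and 70.3 in scrambled, 102 and 99.0 with shRNA-4057, and 105 and 109 with shRNA-4058, the hairpin libraries above every control. Against scrambled, AURKB fell in Jurkat by 0.30 ± 0.083 (adjusted p = 0.031) and rose in HSB-2 by 0.60 ± 0.059 (adjusted p = 8.2e-05). Against WT it gave -0.090 (adjusted p = 0.53) in Jurkat and rose by 0.23 ± 0.052 (adjusted p = 0.013) in HSB-2.

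BUB1, a checkpoint kinase of the kinetochore, stood apart in HSB-2. Its levels there were 343 and 361 in WT, 562 and 540.3 in scrambled, 387 and 392 with shRNA-4057, and 460.3 and 459 with shRNA-4058, so that the scrambled pair was the highest, not the lowest, and the hairpin libraries lay between scrambled and WT. In Jurkat, BUB1 was at 234 and 219.7 in WT, 226 and 218 in scrambled, 175 and 182 with shRNA-4057, and 208 and 204 with shRNA-4058, with the hairpin libraries lowest. The HSB-2 change was -0.37 ± 0.079 (adjusted p = 0.0059) against scrambled and 0.27 ± 0.081 (adjusted p = 0.044) against WT, opposite in sign, and Jurkat gave -0.18 ± 0.084 (adjusted p = 0.14) against scrambled. TPX2, which activates AURKA, rose in HSB-2 by 0.43 (adjusted p = 0.00025) against scrambled and gave 0.099 (adjusted p = 0.16) against WT. TTK, the kinase that recruits checkpoint proteins, gave 0.063 (adjusted p = 0.69) in Jurkat and -0.03 (adjusted p = 0.79) in HSB-2 against scrambled.

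**Figure D3:**
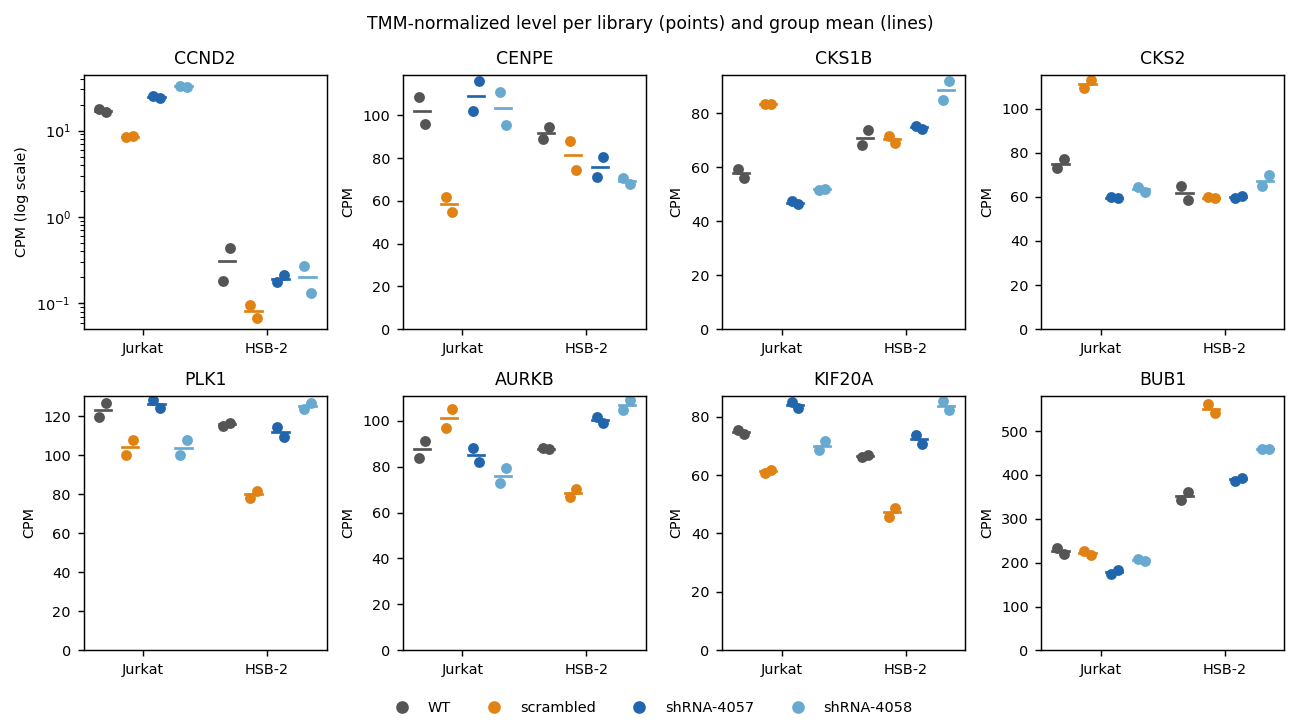
Level of 8 mitotic genes in each library (points) with the mean of each group (lines), in TMM-normalized CPM, by line and group (colors); the axis of CCND2 is logarithmic and the other axes start at 0. The Jurkat scrambled pair lies above the hairpin libraries for CKS1B and CKS2 and below them for CCND2 and CENPE, and the HSB-2 scrambled pair is lowest for PLK1, AURKB and KIF20A and highest for BUB1.

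In the checkpoint and APC/C group, none of 5 members rose and 1 fell in Jurkat, and 3 rose and none fell in HSB-2. CDC20, the activator of the APC/C, was in Jurkat at 135 and 139 in WT, 126 and 134 in scrambled, 139 and 133 with shRNA-4057, and 128 and 131 with shRNA-4058. In HSB-2, CDC20 was at 113 and 114 in WT, 77.8 and 81.0 in scrambled, 104 and 101 with shRNA-4057, and 106 and 109 with shRNA-4058. The scrambled pair was well below the other HSB-2 libraries, the rise over it was 0.41 ± 0.055 (adjusted p = 0.00052), and the pooled hairpins gave -0.12 ± 0.048 (adjusted p = 0.11) against WT. Jurkat gave 0.055 ± 0.062 (adjusted p = 0.53).

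UBE2C, the ubiquitin-conjugating enzyme of the APC/C, was in Jurkat at 56.3 and 58.7 in WT, 60.3 and 67.4 in scrambled, 59.4 and 57.4 with shRNA-4057, and 54.4 and 56.1 with shRNA-4058. In HSB-2, UBE2C was at 85.4 and 85.2 in WT, 64.5 and 68.8 in scrambled, 94.8 and 95.5 with shRNA-4057, and 108 and 114 with shRNA-4058, each hairpin library above each control. It rose in HSB-2 by 0.63 ± 0.085 (adjusted p = 0.00051), and by 0.27 ± 0.08 (adjusted p = 0.04) over WT, whereas Jurkat gave -0.14 ± 0.072 (adjusted p = 0.17). MAD2L1, which holds CDC20 inactive until chromosomes attach, was in Jurkat at 68.9 and 62.7 in WT, 75.7 and 66.9 in scrambled, 58.0 and 62.6 with shRNA-4057, and 71.5 and 66.6 with shRNA-4058, and in HSB-2 at 57.8 and 61.9 in WT, 67.8 and 64.1 in scrambled, 61.02 and 62.7 with shRNA-4057, and 61.8 and 60.2 with shRNA-4058. In HSB-2 all hairpin libraries lay below both scrambled libraries and overlapped with WT, and the changes against scrambled, neither of them called, were -0.12 ± 0.098 (adjusted p = 0.41) in Jurkat and -0.099 ± 0.052 (adjusted p = 0.17) in HSB-2. BUB3, another checkpoint protein, was in Jurkat at 188 and 186 in WT, 233 and 213 in scrambled, 189 and 194 with shRNA-4057, and 182 and 168 with shRNA-4058, with only the scrambled pair high, and in HSB-2 at 149.6 and 154 in WT, 139 and 133 in scrambled, 180.1 and 185 with shRNA-4057, and 170.2 and 178 with shRNA-4058. It fell against scrambled in Jurkat by 0.26 ± 0.075 (adjusted p = 0.038) but gave -0.00025 (adjusted p = 1) against WT, and it rose in HSB-2 by 0.40 ± 0.055 (adjusted p = 0.00056) against scrambled and 0.23 (adjusted p = 0.014) against WT. Its partner BUB1B gave -0.065 (adjusted p = 0.46) and -0.22 (adjusted p = 0.1).

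Of the 9 genes of the centromere, kinetochore and passenger complex, 2 rose and 1 fell in Jurkat, and 4 rose and 1 fell in HSB-2. CENPE (chr4:104026506-104119602, GRCh37), a kinetochore motor, showed the second largest rise of the list in Jurkat. Its Jurkat levels were 109 and 95.9 in WT, 61.8 and 54.9 in scrambled, 102 and 116 with shRNA-4057, and 111 and 95.7 with shRNA-4058, with the scrambled pair far below the other 6 libraries. In HSB-2 CENPE was at 89.1 and 94.4 in WT, 88.2 and 74.6 in scrambled, 71.0 and 80.7 with shRNA-4057, and 70.6 and 67.9 with shRNA-4058. It rose in Jurkat by 0.89 ± 0.099 (adjusted p = 0.001) over scrambled, but scrambled differed from WT by -0.81 (adjusted p = 9.4e-08) and the hairpins gave 0.091 (adjusted p = 0.42) and 0.016 (adjusted p = 0.91) against WT. In HSB-2 the pooled value was -0.16 ± 0.087 (adjusted p = 0.17). CENPF, a large kinetochore protein, followed the same course in Jurkat, with 0.55 (adjusted p = 0.0015) against scrambled and -0.49 (adjusted p = 8.5e-10) for scrambled against WT.

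CENPA, the histone variant that marks centromeres, was in Jurkat at 33.4 and 33.2 in WT, 31.4 and 31.3 in scrambled, 32.4 and 32.0 with shRNA-4057, and 28.7 and 28.3 with shRNA-4058, and in HSB-2 at 32.2 and 32.4 in WT, 27.2 and 27.5 in scrambled, 31.3 and 32.4 with shRNA-4057, and 35.7 and 36.7 with shRNA-4058. It rose in HSB-2 by 0.32 ± 0.076 (adjusted p = 0.0096) and gave -0.021 ± 0.081 (adjusted p = 0.86) in Jurkat; its exons overlap those of SLC35F6 on the same strand. BIRC5, encoding survivin of the passenger complex, was in Jurkat at 111 and 114 in WT, 133 and 138 in scrambled, 116 and 115 with shRNA-4057, and 106 and 108 with shRNA-4058. In HSB-2, BIRC5 was at 91.7 and 92.0 in WT, 77.6 and 78.8 in scrambled, 96.4 and 94.1 with shRNA-4057, and 91.6 and 95.7 with shRNA-4058. BIRC5 fell in Jurkat by 0.26 ± 0.064 (adjusted p = 0.021) from a scrambled level above WT and rose in HSB-2 by 0.28 ± 0.051 (adjusted p = 0.0028) from a scrambled level below WT. Against WT it gave 0.013 ± 0.064 (adjusted p = 0.92) in Jurkat and 0.036 (adjusted p = 0.62) in HSB-2.

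NUF2, a subunit of the NDC80 complex that holds microtubules, was in HSB-2 at 43.1 and 46.9 in WT, 47.8 and 43.2 in scrambled, 33.5 and 34.9 with shRNA-4057, and 39.3 and 38.8 with shRNA-4058, with every hairpin library below every control. In Jurkat, NUF2 was at 52.5 and 48.9 in WT, 55.1 and 47.9 in scrambled, 39.7 and 46.8 with shRNA-4057, and 50.1 and 44.6 with shRNA-4058. The change was -0.31 ± 0.078 (adjusted p = 0.013) in HSB-2 and -0.16 ± 0.11 (adjusted p = 0.29) in Jurkat, and its partner NDC80 moved the other way in HSB-2, at 0.44 ± 0.079 (adjusted p = 0.0024). Against WT the HSB-2 values were -0.30 (adjusted p = 0.023) for NUF2 and 0.17 (adjusted p = 0.15) for NDC80. SPC25, another subunit, gave 0.17 (adjusted p = 0.37) in Jurkat and -0.14 (adjusted p = 0.25) in HSB-2. The passenger complex members CDCA8 and INCENP gave 0.50 (adjusted p = 0.00013) and 0.32 (adjusted p = 0.077) in HSB-2 and -0.069 (adjusted p = 0.72) and -0.22 (adjusted p = 0.055) in Jurkat.

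Spindle motors and microtubule-binding proteins comprised 9 members, of which 3 rose and 1 fell in Jurkat and 6 rose and none fell in HSB-2 (background 12.4 and 15.7% in Jurkat, 20.3 and 17.8% in HSB-2). KIF20A, a kinesin of the central spindle, was in Jurkat at 75.3 and 74.0 in WT, 60.7 and 61.8 in scrambled, 84.9 and 83.1 with shRNA-4057, and 68.6 and 71.5 with shRNA-4058. In HSB-2, KIF20A was at 66.3 and 66.7 in WT, 45.8 and 48.8 in scrambled, 73.7 and 70.7 with shRNA-4057, and 85.2 and 82.3 with shRNA-4058, with the hairpin libraries above both controls. The rise over scrambled was 0.35 ± 0.1 (adjusted p = 0.034) in Jurkat and 0.73 ± 0.084 (adjusted p = 0.00021) in HSB-2. Its pooled values against WT were not called, at 0.073 (adjusted p = 0.68) in Jurkat and 0.22 (adjusted p = 0.069) in HSB-2. KIF20A has exons opposite BRD8 and CDC23.

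ASPM, which focuses spindle poles, was in Jurkat at 208 and 187 in WT, 149 and 129.8 in scrambled, 207 and 238 with shRNA-4057, and 239 and 205 with shRNA-4058, the scrambled pair being lowest. In HSB-2, ASPM was at 234.7 and 257 in WT, 249 and 207 in scrambled, 210.4 and 219 with shRNA-4057, and 194 and 193 with shRNA-4058. It rose in Jurkat by 0.70 ± 0.099 (adjusted p = 0.0025) over scrambled, which differed from WT by -0.50 (adjusted p = 4.9e-05), and gave -0.15 ± 0.083 (adjusted p = 0.17) in HSB-2. The motors KIF11, KIF23 and KIF2C gave 0.29 (adjusted p = 0.021), 0.11 (adjusted p = 0.32) and -0.27 (adjusted p = 0.07) in Jurkat and 0.085 (adjusted p = 0.34), 0.42 (adjusted p = 0.00037) and 0.46 (adjusted p = 0.00028) in HSB-2. Against WT, Jurkat KIF11 gave 0.18 (adjusted p = 0.17). The HSB-2 values against WT were 0.029 (adjusted p = 0.71) for KIF23 and 0.27 (adjusted p = 0.0052) for KIF2C. PRC1, DLGAP5 and NUSAP1, which bundle or stabilize microtubules, rose over scrambled in HSB-2 by 0.26 (adjusted p = 0.0059), 0.33 (adjusted p = 0.0035) and 0.32 (adjusted p = 0.00089), and of these NUSAP1 fell in Jurkat, by 0.24 (adjusted p = 0.022). Against WT they gave 0.11 (adjusted p = 0.17), 0.11 (adjusted p = 0.24) and 0.22 (adjusted p = 0.0080) in HSB-2. In Jurkat, NUSAP1 gave -0.032 (adjusted p = 0.76) against WT. HMMR was called in neither pooled comparison.

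The chromosome proteins of the list were TOP2A and MKI67. TOP2A, the topoisomerase that untangles sister chromatids, was in Jurkat at 771 and 716 in WT, 768 and 698 in scrambled, 729 and 800.4 with shRNA-4057, and 756 and 721 with shRNA-4058. In HSB-2, TOP2A was at 733 and 769 in WT, 719 and 687 in scrambled, 811 and 859 with shRNA-4057, and 861 and 824 with shRNA-4058, the hairpin libraries above the controls. MKI67, the gene of the proliferation antigen Ki-67, was in Jurkat at 941 and 951 in WT, 789 and 827 in scrambled, 1106 and 1092 with shRNA-4057, and 895 and 929 with shRNA-4058. Its HSB-2 levels were 1487 and 1464 in WT, 1085 and 1116 in scrambled, 1579 and 1581 with shRNA-4057, and 1401 and 1405 with shRNA-4058. MKI67 rose over scrambled by 0.34 ± 0.097 (adjusted p = 0.035) in Jurkat and 0.44 ± 0.07 (adjusted p = 0.0012) in HSB-2, but scrambled was below WT in both lines, at -0.23 (adjusted p = 2.6e-06) and -0.42 (adjusted p = 5.0e-11). TOP2A rose in HSB-2 by 0.26 ± 0.05 (adjusted p = 0.0035) and gave 0.062 ± 0.066 (adjusted p = 0.51) in Jurkat.

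Of the cytokinesis genes, ANLN, a scaffold of the contractile ring, rose in HSB-2 by 0.54 ± 0.049 (adjusted p = 5.4e-05) against scrambled and 0.31 ± 0.044 (adjusted p = 0.0019) against WT. ECT2, which activates RhoA at the cleavage site, fell in Jurkat by 0.30 ± 0.085 (adjusted p = 0.034) and gave 0.077 ± 0.057 (adjusted p = 0.32) in HSB-2.

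The scrambled control was compared with WT as the background of these changes. In HSB-2, 30 of 51 members were lower and 2 higher in scrambled than in WT, where 17.9% of all 23063 genes were lower and 16.1% higher, and the median log2 fold change was -0.17. In Jurkat, 11 members were lower and 16 higher, against 11 and 14.8% of all genes. These scrambled libraries are also the reference of the pooled comparisons, so the comparisons share them and each count is given on its own. BUB1 (0.65 (adjusted p = 1.5e-12)) and CCNE2 (0.21 (adjusted p = 0.012)) were the 2 members higher in the HSB-2 scrambled control than in WT, and the lowest were CCND2, PLK1 (-0.54 (adjusted p = 1.4e-09)) and CDC20 (-0.52 (adjusted p = 4.0e-10)).

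Judged against all 4 control libraries, fewer members stood out on the higher side than in the pooled comparisons with scrambled. The lower side held no fewer. In HSB-2, 19 of 51 lay above all controls in all 4 hairpin libraries, where 15.6% of all genes did so, and 3 lay below (CDC25A, BUB1B and NUF2; 15.3% of all genes). The 19 were CCNA2, CCND3, CDC25B, CDC25C, AURKB, BUB3, KIF20A, KIF2C, TOP2A, TPX2, CDCA8, ANLN, PRC1, UBE2C, CKS1B, FOXM1, MYBL2, CDKN3 and NUSAP1. In Jurkat 5 lay above (CCND2, CDC25B, KIF11, NDC80 and E2F2; 11.5% of all genes) and 12 below (17%). These 12 were CCNB2, CDC25C, AURKA, BUB1, KIF2C, TPX2, INCENP, ECT2, PRC1, CKS1B, CKS2 and CDKN3. CDC25B was the only member above all controls in both lines.

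Single hairpins were compared in the fit of all 16 libraries, so that their error came only from replicates of a group. In HSB-2, shRNA-4057 gave 33 members higher and 4 lower than scrambled (21.9 and 21.7% of all genes) and shRNA-4058 gave 35 higher and 9 lower (26.6 and 26.2%), or 44 and 4 with the GC and length correction. Against WT the counts were 20 higher and 7 lower with shRNA-4057 (16 and 15.7%), and 25 higher and 9 lower with shRNA-4058 (23 and 21.1%). The HSB-2 excess on the higher side thus stood above the background with either hairpin and against either control, while the medians against WT were small, at 0.055 and 0.12.

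In Jurkat, shRNA-4057 gave 14 members higher and 24 lower than scrambled (22.7 and 27.3% of all genes), and shRNA-4058 gave 12 higher and 25 lower (19.7 and 26.7%). Against WT the counts were 11 higher and 18 lower (15.4 and 21.2%), and 9 higher and 19 lower (13.9 and 21.9%). The lower side exceeded the background in each Jurkat comparison of single hairpins, while the higher side lay close to it. Medians ran from -0.13 to -0.014.

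The hairpins were also set against each other. In Jurkat 28 members differed between them, 15 being higher with shRNA-4057 and 13 lower, where 33.9% of all genes differed; with the correction for GC content and length described below the split was 22 and 10. In HSB-2 22 differed, 8 higher and 14 lower with shRNA-4057, where 24.8% of all genes did. This split became 6 and 19 with DESeq2 size factors and 9 and 28 with the GC and length correction. The share of all genes called was not worked out for either setting. The widest Jurkat gaps were -0.40 (adjusted p = 0.0018) for CCND2 and 0.39 (adjusted p = 8.3e-08) for CDCA8, and in HSB-2, after CCNE2, -0.40 (adjusted p = 5.6e-08) for INCENP. USP7 was lower with shRNA-4057 than with shRNA-4058 in Jurkat, while the HSB-2 levels of USP7 lay closer together.

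Whether the lines responded differently was tested as an interaction over the 12 hairpin and scrambled libraries. Of the 51 members, 29 changed more positively in HSB-2 than in Jurkat and 3 more negatively, where 20.6 and 17.1% of all 22732 genes did so, and the median difference was 0.37. The highest values were 0.97 ± 0.12 (adjusted p = 6.9e-05) for CKS1B, 0.95 ± 0.10 (adjusted p = 1.7e-05) for CKS2, 0.93 ± 0.11 (adjusted p = 2.9e-05) for AURKB and 0.87 ± 0.098 (adjusted p = 2.6e-05) for CCND3. The 3 negative ones were CENPE, ASPM and CENPF. Scrambled was the only reference here, and the line difference was not tested against WT. Pooled values against WT, Jurkat then HSB-2, were -0.20 and 0.20 for CKS1B, -0.26 and 0.040 for CKS2, and -0.090 and 0.23 for AURKB. They were 0.16 and 0.38 for CCND3, and 0.085 and -0.34 for CENPE. Of the 5 members that rose over scrambled in both lines, CCND2, CDC25B, MKI67 and CCNB1 had no called difference and KIF20A had one of 0.40 (adjusted p = 0.038).

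**Figure D4:**
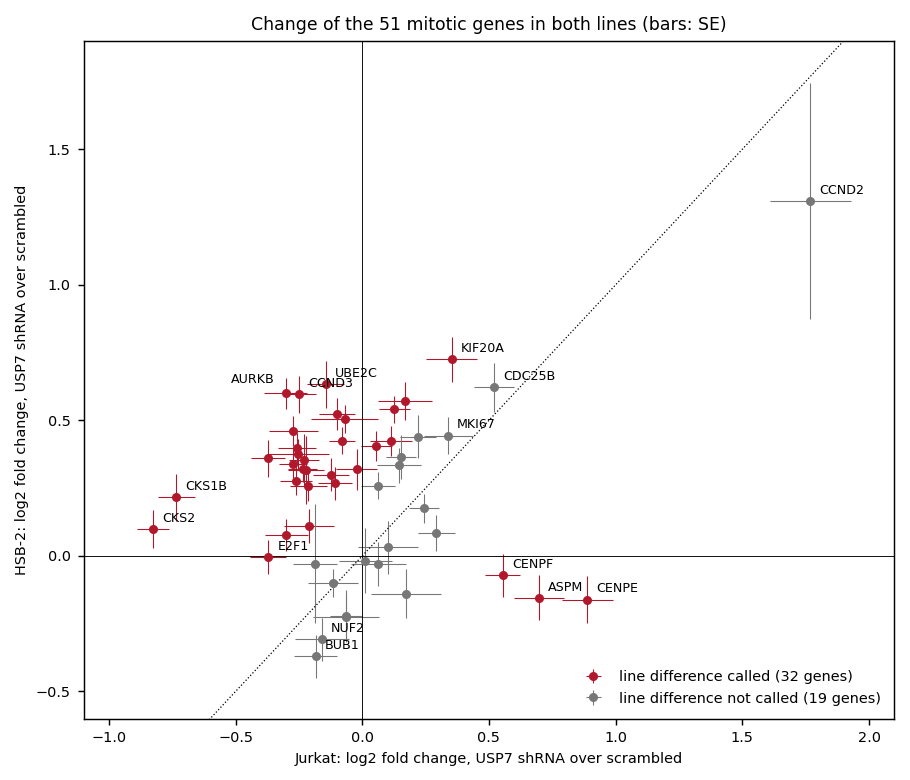
Log2 fold change of USP7 shRNA over scrambled for each of the 51 genes, in Jurkat (x axis) and HSB-2 (y axis), with standard errors as bars; red points are the 32 genes whose line difference was called and grey points the other 19, and the dotted line marks equal change. Most red points lie above the dotted line, and CENPE, ASPM and CENPF lie to the lower right.

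Base composition moved with the HSB-2 change against scrambled. Across the 51 members the log2 fold change in HSB-2 had a Spearman correlation of 0.56 with GC content (median over the transcripts of a gene), against 0.28 over all 20353 annotated genes tested. In Jurkat the values were -0.24 for the members and -0.14 over 20513 genes. For HSB-2 scrambled against WT the correlation across the members was -0.51. Against WT it was 0.19 with HSB-2 shRNA-4057 and 0.32 with HSB-2 shRNA-4058. The part of the scrambled control in this trend was not tested. These correlations are descriptions across genes that share libraries, and genes are not independent replicates. When GC content and transcript length were corrected for by a loess curve in each library, 39 members were higher and 1 lower in HSB-2, and 10 higher and 13 lower in Jurkat. The share of all genes called with the correction was not worked out, so these counts have no background. Calls in HSB-2 scrambled against WT went from 32 to 43 with it. The correction also turned the sign of CENPE in HSB-2, from -0.16 (adjusted p = 0.17) to 0.21 (adjusted p = 0.0071).

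**Figure D5:**
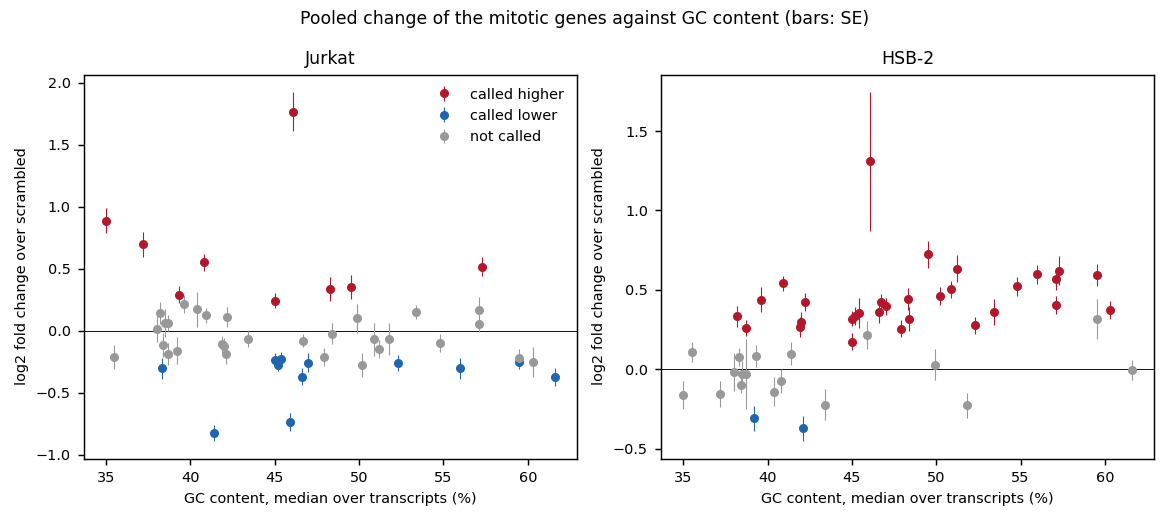
Pooled log2 fold change over scrambled (y axis, with standard errors) against GC content in percent (x axis) for the 51 genes in Jurkat (left) and HSB-2 (right), colored by call. In HSB-2 the points tend upward with GC content (Spearman correlation 0.56), and genes of low GC content lie on both sides of 0, with CENPE (35.0%) below it and CDK1 (35.5%) above it.

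Other cell cycle genes were counted by lists set beside the members. The background for all these lists is again 12.4% of all genes higher and 15.7% lower in Jurkat, and 20.3% higher and 17.8% lower in HSB-2. Of 11 CDK inhibitors, pocket proteins and related genes tested, 1 rose and 3 fell in Jurkat, and 6 rose and none fell in HSB-2. CDKN1A, the p53-induced inhibitor p21, was in HSB-2 at 86.6 and 86.6 in WT, 43.8 and 43.6 in scrambled, 97.6 and 95.3 with shRNA-4057, and 147 and 153 with shRNA-4058. In Jurkat, CDKN1A was at 1.39 and 1.63 in WT, 2.28 and 1.97 in scrambled, 1.67 and 1.41 with shRNA-4057, and 2.30 and 1.80 with shRNA-4058, near the lower end of expression. CDKN1A rose in HSB-2 by 1.5 ± 0.20 (adjusted p = 0.00051), from a scrambled level below WT, and gave -0.21 ± 0.21 (adjusted p = 0.47) in Jurkat. CDKN1B, encoding the inhibitor p27, was the lowest of this list in Jurkat, at -0.91 (adjusted p = 0.0001), and RB1, the retinoblastoma protein gene, the highest there, at 0.87 (adjusted p = 0.0003) and the lowest in HSB-2, at -0.16 (adjusted p = 0.17).

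Among other cyclins and CDKs, 2 rose and 2 fell of 11 in Jurkat, from CCNB3 at -0.60 (adjusted p = 0.096) to CCND1 at 1.26 (adjusted p = 0.028), and 4 rose and 2 fell of 10 in HSB-2, from CDK6 at -0.61 (adjusted p = 0.0016) to CCND1 at 1.64 (adjusted p = 0.00016). CCND1, another D-type cyclin, was in HSB-2 at 2.47 and 2.09 in WT, 0.680 and 0.712 in scrambled, 2.52 and 2.08 with shRNA-4057, and 2.11 and 1.93 with shRNA-4058, so that only the scrambled pair was low, and against WT it gave -0.0017 (adjusted p = 1) with shRNA-4057 and -0.18 (adjusted p = 0.47) with shRNA-4058. Jurkat CCND1 was near the floor, with summed counts per group of 63 in WT, 33 in scrambled, 95 with shRNA-4057 and 96 with shRNA-4058. The scrambled pair was lowest there too. Of 14 E2F, DREAM and B-MYB complex genes, none rose and 2 fell in Jurkat, from MYB at -0.70 (adjusted p = 0.0093) to LIN9 at 0.088 (adjusted p = 0.6), and 2 rose and 4 fell in HSB-2, from TFDP2 at -0.75 (adjusted p = 6.3e-05) to E2F8 at 0.53 (adjusted p = 0.0006). TFDP2 averaged 87.7 CPM in HSB-2 WT, 128 in scrambled, 80.2 with shRNA-4057 and 71.3 with shRNA-4058, so the scrambled pair was high. The APC/C and mitotic exit list gave 1 higher and 3 lower of 19 in Jurkat, from ANAPC11 at -0.63 (adjusted p = 0.0019) to ANAPC4 at 0.39 (adjusted p = 0.026). In HSB-2 it gave 6 higher and 6 lower of 20, from ANAPC4 at -0.59 (adjusted p = 0.00027) to CDC14B at 2.91 (adjusted p = 0.02). CDC14B was near the floor there. Its summed counts per group were 25 in WT, 11 in scrambled, 17 with shRNA-4057 and 109 with shRNA-4058. ANAPC11 and ANAPC4 stood in opposite order in the lines. In Jurkat, ANAPC4 averaged 27.3 CPM in WT, 22.4 in scrambled, 27.6 with shRNA-4057 and 30.2 with shRNA-4058, so the scrambled pair was lowest.

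Cohesin and condensin genes gave 4 higher and 4 lower of 18 in Jurkat, from NCAPD3 at -0.32 (adjusted p = 0.0037) to STAG1 at 0.58 (adjusted p = 0.0038), and 7 higher and 1 lower of 18 in HSB-2, from STAG1 at -0.26 (adjusted p = 0.094) to CDCA5 at 0.51 (adjusted p = 0.00066). Other kinetochore and checkpoint genes gave 2 higher and 4 lower of 28 in Jurkat, from SPC24 at -0.47 (adjusted p = 0.008) to KNL1 at 0.37 (adjusted p = 0.011), and 6 higher and 4 lower of 28 in HSB-2, from KNTC1 at -0.30 (adjusted p = 0.0033) to HJURP at 0.52 (adjusted p = 8.6e-05). Other spindle and cytokinesis genes gave 2 higher and 2 lower of 24 in Jurkat, from KIFC1 at -0.33 (adjusted p = 0.034) to KIF14 at 0.62 (adjusted p = 0.0029), and 15 higher and 2 lower of 25 in HSB-2, from DEPDC1 at -0.36 (adjusted p = 0.013) to KIFC1 at 0.60 (adjusted p = 2.9e-05). In Jurkat, KIF14 averaged 102 CPM in WT, 69.7 in scrambled, 109 with shRNA-4057 and 101 with shRNA-4058, so only the scrambled pair was low. Jurkat KIFC1 averaged 154 CPM in WT, 185 in scrambled, 157 with shRNA-4057 and 133 with shRNA-4058. Beside the background of 20.3% higher in HSB-2, the spindle and cytokinesis list held the highest share, with a median log2 fold change of 0.27, and the pooled medians of the other lists except the CDK inhibitors (0.19) lay between -0.11 and 0.052. The scrambled control was low for the spindle and cytokinesis list in HSB-2, with 17 of 25 genes lower than in WT and none higher (median -0.22; 17.9 and 16.1% of all genes). Against WT the list gave 10 higher and 5 lower with shRNA-4057 (median 0.058; 16 and 15.7% of all genes) and 8 higher and 5 lower with shRNA-4058 (median 0.030; 23 and 21.1%).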

How the data were processed

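RNA-seq was done on 16 libraries of ribosomal RNA-depleted total RNA from Jurkat and HSB-2, prepared with a stranded kit. The table deposited by the authors held unscaled read counts for each gene and library: the authors aligned reads with BWA to GRCh37-lite and transcript sets and counted with HTSeq (0.6.1p1 in the submitters' processing notes, which also name STAR and CASAVA). The strand setting and gene models are not given in the sources used here. Of 57820 identifiers, 55538 matched GENCODE release 44 on GRCh37, which gave the symbols, exon lengths and GC content.

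Counts were filtered (filterByExpr), scaled by TMM (factors 0.882 to 1.15) and compared with the quasi-likelihood F-test of edgeR 4.0.16 in R 4.3.3, with Benjamini-Hochberg adjustment over all genes tested. Genes were called at an adjusted p under 0.05. The ± values are standard errors, the absolute log2 fold change over the square root of F. Pooled comparisons used 4 hairpin and 2 scrambled libraries of a line, single comparisons 1 fit of 8 groups, and the line difference 12 libraries. The biological coefficient of variation was 14.3% (Jurkat pooled), 10.7% (HSB-2 pooled), 4.20% (8 groups) and 12.8% (line difference). Replicates differed by more than sampling noise in every group, so no library was counted as a duplicate. The scripts were tested on simulated data.

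Every-library values were given for a preset list of members and for the 3 highest and 3 lowest pooled changes of each line, and other lists by counts with their extremes. Members and lists were chosen with earlier results of these data known. Alternatives were DESeq2 1.42.0, other scaling and filters, a replicate block, a GC and length offset, WT as control, and each replicate left out. The level of 1 marker gene is not reported here.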

Additional observations from a re-analysis of the deposited data

Results flagged for a closer look

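The change of USP7 shRNA against scrambled differed between HSB-2 and Jurkat for 32 of the 51 members in the interaction test of edgeR (adjusted p under 0.05), and each value below is the HSB-2 log2 fold change minus the Jurkat one. The largest of the 29 positive differences were 0.97 for CKS1B, 0.95 for CKS2, 0.93 for AURKB, 0.87 for CCND3, 0.80 for UBE2C, 0.76 for KIF2C, 0.76 for CDC25C, 0.68 for BUB3, 0.65 for MYBL2 and 0.65 for FOXM1. Below these came 0.63 for CCNB2, 0.61 for AURKA, 0.60 for CDCA8, 0.58 for NUSAP1, 0.56 for INCENP, 0.56 for BIRC5, 0.53 for TPX2, 0.49 for PRC1, 0.45 for CDKN3 and 0.44 for ANLN. The remaining positive ones were 0.43 for PLK1, 0.40 for ECT2, 0.40 for CCNA2, 0.40 for KIF20A, 0.39 for E2F1, 0.37 for CDC20, 0.37 for CENPA, 0.34 for CDK1 and 0.33 for KIF23. The negative differences were -1.03 for CENPE, -0.83 for ASPM and -0.60 for CENPF. The scrambled libraries of each line enter its own effect, and the difference can lie in either control as well as in the hairpin libraries; this was not tested.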

How the results depend on the processing

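Across DESeq2 size factors, both other filters on low counts and the DESeq2 Wald test, the number of members called changed by less than 1.5 times in every comparison, with 18 to 22 in Jurkat pooled (21 as reported), 33 to 36 in HSB-2 pooled (33) and 30 to 35 for the line difference (32), and no called member turned sign. Fits of the libraries of a single line also changed no count by more than 1.5 times. With a replicate block the Jurkat pooled count was 10 (5 higher, 5 lower), namely ASPM, CCNB2, CENPE, E2F1, CDC25C, CENPF, CCND2, CKS2, CKS1B and CDC25B; HSB-2 pooled gave 31 and the line difference 28, and the block changed no other count by more than 1.5 times. Over all genes that passed the filter, deviations from the group means correlated at only -0.045 to 0.053 between same-numbered libraries of a line. Genes of low counts enter these values with sampling noise, so they cannot exclude an effect shared by same-numbered libraries. Nothing beyond the counts was read from the block. With WT as control the pooled count was 5 in Jurkat and 15 in HSB-2, and the sign turned for CCND3 0.16 and BIRC5 0.013 in Jurkat, and CCNB1 -0.16, CDC20 -0.12, BUB1 0.27 and CCND2 -0.54 in HSB-2. With scrambled and WT together it was 15 (6 higher, 9 lower) in Jurkat and 23 (20 higher, 3 lower) in HSB-2. Matched by hairpin, the line difference was called for 43 members (35 and 8), including all 32 called as reported. The cause of these shifts was not tested. Apart from WT as control, the share of all genes called was not worked out under these alternatives. Their counts therefore have no background. With each replicate left out in turn, the Jurkat pooled count ran from 6 to 21, the HSB-2 pooled count from 24 to 36 and the line difference from 25 to 32. A comparison left with 1 library in a group assumes that it varies like the others. The correction for GC content and length raised the calls between the hairpins in HSB-2 to 37 (9 and 28), and gave the sign opposite to that reported for 32 values of members called before or after it. These log2 values were CENPE 0.21, TTK 0.22 and MAD2L1 0.14 in HSB-2 pooled hairpins against scrambled and NDC80 -0.047, PLK1 0.16, HMMR -0.14, INCENP 0.0070, TOP2A -0.21, CDC20 0.14 and MYBL2 0.036 in Jurkat shRNA-4058 against scrambled. Others were CENPE -0.17, CDK1 -0.12 and HMMR -0.11 in Jurkat shRNA-4058 against WT and TOP2A 0.075 in Jurkat scrambled against WT. Further ones were DLGAP5 0.12 in Jurkat shRNA-4057 against shRNA-4058 and ASPM 0.13, CENPE 0.21, HMMR 0.029 and MAD2L1 0.13 in HSB-2 shRNA-4057 against scrambled. The single-hairpin HSB-2 comparisons also gave SPC25 0.031, ASPM 0.13, CENPE 0.26, CENPF 0.065, TTK 0.27, NUF2 0.078 and MAD2L1 0.21 in HSB-2 shRNA-4058 against scrambled and ECT2 0.16 and TTK 0.13 in HSB-2 shRNA-4058 against WT. The last were TTK -0.14 and BUB1B -0.074 in HSB-2 scrambled against WT and TTK 0.39 and KIF11 0.23 in the line difference. The cause was not tested. Depth limits CCND2 in HSB-2, where counts were as low as 9, and 2 libraries per group limit every spread.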
